A study of Mus musculus with 7 samples.

Results

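A set of 8 genes of the early endoderm programme were sought in ChIP-seq profiles of mouse embryonic stem cells (ESCs), which do not yet run this programme: Gata4, Gata6, Sox17, Sox7, Foxa2, Hnf4a, Dab2 and Afp. They were found by gene symbol, which gave 11 transcription start sites (TSSs) of 7 genes, among 36733 TSS rows and 17689 named genes in all. No row carried the symbol Gata6. Of these genes, 4 (Gata4, Sox17, Foxa2 and Hnf4a) had more than one start, here called first and second from upstream to downstream along the gene.

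The data were 7 ChIP-seq libraries from E14 ESCs grown without feeders in the presence of LIF, 1 library per condition, so no difference below was tested between conditions. Tip60-H3F ESCs carry a C-terminal His and FLAG tag on 1 endogenous copy of Tip60, and their Flag ChIP was made upon GFP KD (the control shRNA) and upon Hdac6 KD. Hdac6-H3F ESCs carry the same tag on endogenous Hdac6, and their Flag ChIP was made upon GFP KD and upon Tip60 KD. Flag ChIP of wild-type ESCs with no tag, for which no knockdown is given, measured antibody background. ChIP with an antibody to endogenous p400 was made in untagged ESCs upon GFP KD and upon Hdac6 KD. Knockdowns were by shRNA lentivirus, and cells were taken 72 hr after infection. The library titled Tip60 KD has Hdac6 KD in its genotype label. The title was used, and the knockdown in it is in doubt wherever it is named below. ChIP signal does not measure expression, so neither the knockdowns nor the cell type could be checked against transcripts.

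Tip60-p400 is a chromatin remodelling and histone acetylation complex. Tip60 is its acetyltransferase, p400 its ATPase, and Hdac6 is a deacetylase otherwise best known in the cytoplasm. In early embryos the primitive endoderm is marked by the GATA factors Gata6 and Gata4 and by the SOX factors Sox17 and Sox7. Foxa2, a forkhead factor, and Hnf4a, a nuclear receptor, act in definitive and visceral endoderm. Dab2, an endocytic adaptor, and Afp, a secreted serum protein, are products by which visceral endoderm is recognised. Pluripotent cells keep these genes low.

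Depth set how much could be read from single promoters. The libraries were normalized to between 9226710 and 31375600 reads, and the median row held 8 to 21 reads in the promoter window, from 500 bp before to 500 bp after the TSS. Reads were recovered from the coverage values, as each value is a whole multiple of the value of 1 read. Isolated reads spanned about 299 bp, except in both Hdac6 libraries, where they spanned about 148 bp, so libraries were compared by reads and not by coverage height. Intervals below are exact 95% intervals of the read counts. They cover counting error only, not the variation between cultures.

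All positions are in mm9. The promoter windows of Gata4 were chr14:63890029-63891029 (first start) and chr14:63863597-63864597 (second start), 26432 bp apart on the minus strand, and both starts are annotated. The windows of Sox17 were chr1:4485994-4486994 and chr1:4483316-4484316, also on the minus strand. The second one lies 2628 bp from the nearest annotated start, inside an intron of the gene. Sox7 had 1 start (chr14:64562043-64563043, plus strand). Foxa2 had 2 starts only 1064 bp apart (chr2:147872205-147873205 and chr2:147871141-147872141, minus strand), so reads at one edge may be shared by both. The 2 starts of Hnf4a (chr2:163332084-163333084 and chr2:163372424-163373424, plus strand) are its distal and proximal promoters. Dab2 was at chr15:6336248-6337248 and Afp at chr5:90919263-90920263, both on the plus strand.

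The promoters differ in base composition, and 4 are shown because they span that range and are those whose p400 or Tip60 reads are described below. Each is the sequence before the RefSeq start (RefSeq, GRCm38.p6, found unchanged and once in mm9), 5′ to 3′ on the strand of the gene, ending before the first annotated UTR base. Capitals mark the GC box GGGCGG and the TATA box TATAAA, searched on both strands.
Afp (chr5:90919490-90919739): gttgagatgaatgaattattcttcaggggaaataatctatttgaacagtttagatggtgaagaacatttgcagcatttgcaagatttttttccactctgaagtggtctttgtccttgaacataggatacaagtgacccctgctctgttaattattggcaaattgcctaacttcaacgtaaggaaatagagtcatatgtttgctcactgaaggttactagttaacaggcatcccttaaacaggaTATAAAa
Dab2 (chr15:6336498-6336597): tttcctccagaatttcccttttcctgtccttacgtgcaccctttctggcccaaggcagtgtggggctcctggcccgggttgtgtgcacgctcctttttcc
Foxa2 second start (chr2:147871685-147871934): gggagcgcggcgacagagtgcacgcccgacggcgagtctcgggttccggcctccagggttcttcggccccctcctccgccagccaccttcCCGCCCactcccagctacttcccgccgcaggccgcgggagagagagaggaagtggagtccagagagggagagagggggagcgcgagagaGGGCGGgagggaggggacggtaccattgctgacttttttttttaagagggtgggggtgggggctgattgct
Hnf4a second start (chr2:163372641-163372890): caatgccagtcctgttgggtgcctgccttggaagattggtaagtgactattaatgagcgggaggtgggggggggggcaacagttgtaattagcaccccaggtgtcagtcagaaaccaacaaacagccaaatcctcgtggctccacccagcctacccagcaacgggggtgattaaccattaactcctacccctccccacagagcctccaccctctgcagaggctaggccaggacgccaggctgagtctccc
The 250 bases before the Afp start held 1 CpG and 36% GC, with a TATA box that 12.4% of 32851 mouse promoters of the same length also hold. Those before the Foxa2 second start held 20 CpGs and 67.2% GC, with 2 GC boxes, which 32.7% of promoters hold at least once. Neither motif was in the 250 bases of Dab2 (17 CpGs) or of the Hnf4a second start (4 CpGs), where the median promoter has 6 CpGs. The GATA motif AGATAA was in 9.99% of all promoters and the forkhead motif TGTTTAC in 3.17%. Of the 6 starts with a matched RefSeq promoter, 1 held AGATAA within its 250 bases, the Hnf4a first start, which also held 1 GC box, and 0 held TGTTTAC. A missing motif says only that those letters are not in the window. The 6 starts belong to Foxa2, Hnf4a, Dab2 and Afp, 4 of the 7 genes.

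Over the whole promoter window, GC content ran from 39.06% at Afp to 66.03% at Sox7, against a median of 55.24% over 22704 RefSeq rows.

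By promoter coverage, with background left in, the 11 starts as a set ranked below the middle of all rows. In each of the 5 Flag libraries and in the p400 GFP KD library, 0 of 11 ranked in the top 10%, which holds 10% of all rows by definition. Their median rank lay between the 36.37 and the 48.98 percentile in all 7 libraries. Only 2 of 11 were above the median row in the untagged library, and 4 or 5 in each of the other libraries. The single start in a top 10% was the Hnf4a second start in the p400 Hdac6 KD library, at the 91.56 percentile.

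Promoter reads are listed for Tip60 ChIP (GFP KD, then Hdac6 KD), Hdac6 ChIP (GFP KD, then Tip60 KD), the untagged control and p400 ChIP (GFP KD, then Hdac6 KD), always in that order. The Gata4 first start held 5, 5, 7, 7, 9, 13 and 27 reads. The Gata4 second start held 10, 7, 12, 15, 11, 30 and 18 reads. As the p400 rows were joined, the 2 starts of this GATA factor were ordered oppositely in the 2 p400 libraries: the second was higher upon GFP KD and the first upon Hdac6 KD. Which p400 row belongs to which start could not be checked for Gata4 or for Hnf4a, so this depends on the order of the rows.

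Among the SOX factors, the Sox17 first start held 14, 13, 7, 8, 6, 21 and 16 reads. The intronic Sox17 second start held 12, 10, 16, 6, 12, 17 and 15 reads. Sox7, which follows the GATA factors in primitive endoderm, held 12, 5, 12, 17, 2, 23 and 20 reads. Its 2 reads in the untagged library were the fewest of any start there, at the 3.742 percentile of rows.

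For the forkhead factor, the Foxa2 first start held 11, 6, 5, 9, 10, 18 and 18 reads. The Foxa2 second start held 13, 5, 12, 14, 10, 22 and 12 reads, and ranked at the 52.76 percentile of p400 rows upon GFP KD and at the 16.93 percentile upon Hdac6 KD. The distal Hnf4a promoter held 17, 9, 9, 6, 16, 17 and 24 reads. The proximal one held 4, 10, 9, 10, 9, 13 and 29 reads, so that it was near the bottom in Tip60 GFP KD (6.249 percentile) and near the top in p400 Hdac6 KD.

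Of the visceral endoderm products, Dab2 held 8, 13, 12, 6, 11, 26 and 15 reads and Afp 2, 4, 7, 3, 11, 11 and 12 reads. Afp, with the lowest GC content, had the fewest reads of the 11 starts in 4 libraries (both Tip60 libraries, Hdac6 Tip60 KD and p400 GFP KD).

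**Figure D1:**
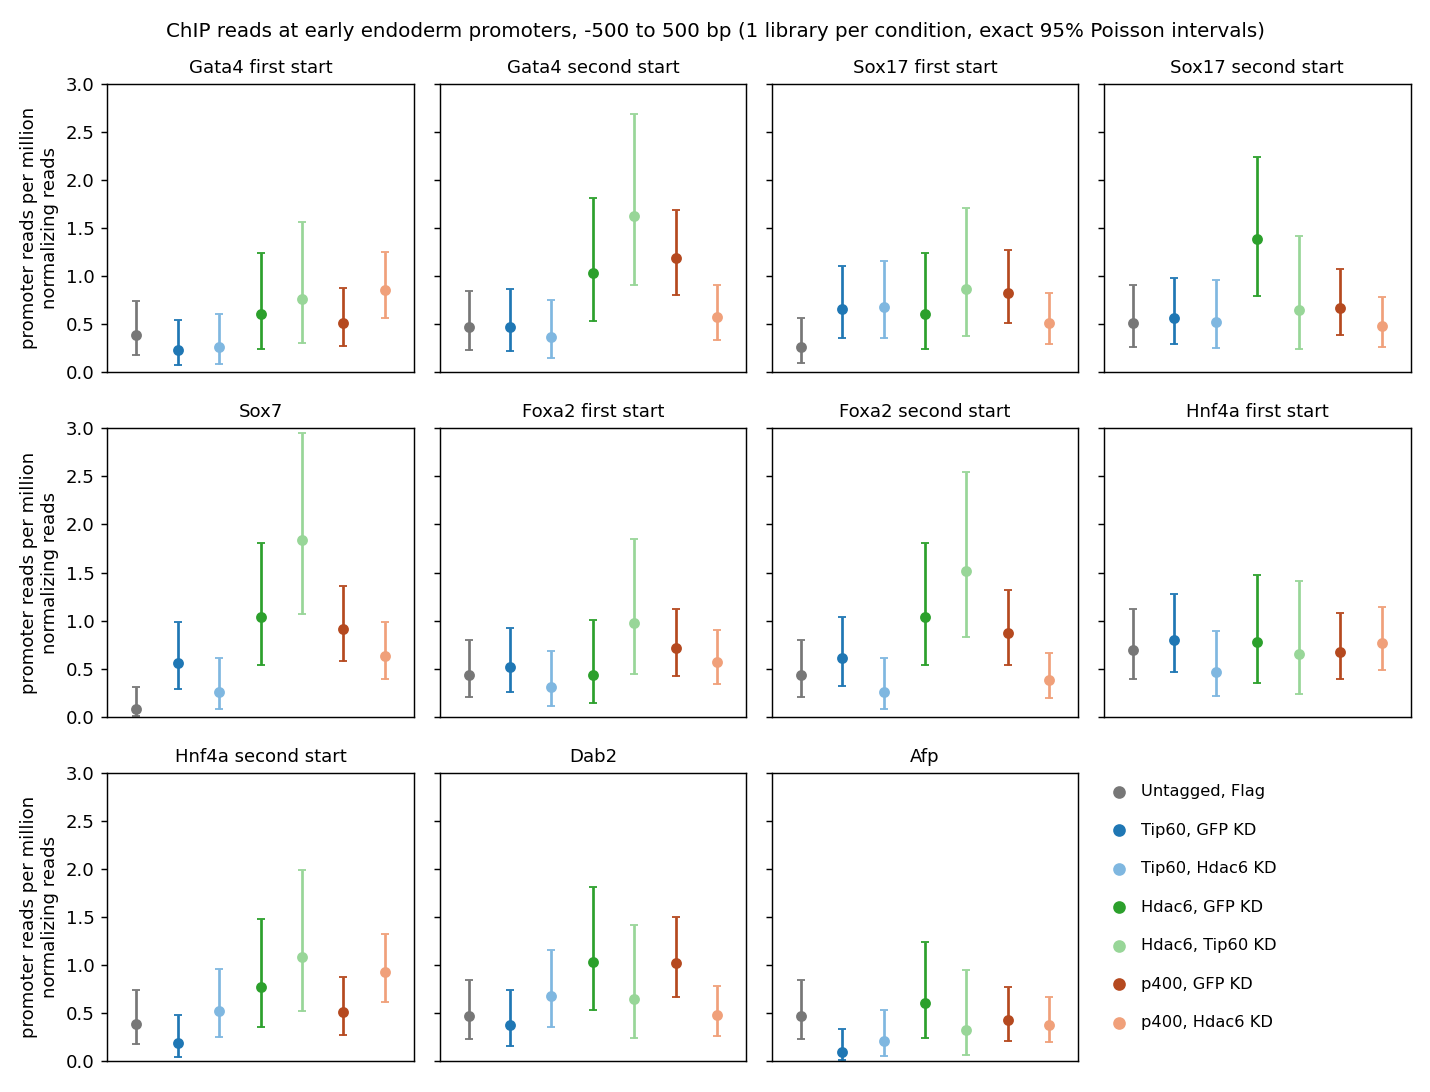
Promoter reads per 1000000 normalizing reads (RPM, y axis) at the 11 starts, 1 panel each, with 1 point per library in the colours of the key and exact 95% Poisson intervals of the reads. The intervals of most libraries overlap within each panel, and the untagged library at Sox7 (0.0864 RPM) is the lowest point.

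For Gata6, 1 row without a symbol lies at the annotated mm9 start of the gene. It was found by coordinate after the files were seen and is not counted among the 11 starts. It held 11, 15, 14, 8 and 10 reads in the 5 Flag libraries, in the same order, and no p400 value exists for rows without an identifier. Tip60 GFP KD and untagged thus held near-equal reads there, at 0.516 and 0.432 reads per 1000000 normalizing reads (RPM). Hdac6 GFP KD, a smaller library, held 1.208 RPM, a ratio over untagged of 2.8 (interval 1.155 to 7.04). Adjusted p was 0.0618 by the exact binomial test described below, and the fold ranked at the 77.29 percentile of all rows.

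The first comparison asked whether tagged Tip60 gave signal beyond antibody background at these promoters. At most of them it did not do so detectably at this depth. A start was counted as higher or lower when it was at least 1.5-fold apart (1 read added to each library) with at least 10 reads in 1 of the libraries. By that count 2 of 11 starts were higher in Tip60 GFP KD, against 23.8% of all rows, and 1 was lower, against 11.1%. The median log2 fold was 0.12 over the 11 starts and 0.12 over all rows. Sox7 had 12 reads against 2, a read-rate ratio of 6.51 (interval 1.45 to 59.9, adjusted p = 0.165 by an exact binomial test on the reads of the pair, adjusted over all rows by the Benjamini-Hochberg method). This test compares the libraries, not the conditions. Among the folds of all rows Sox7 ranked at the 99.42 percentile and Afp at the 0.652 percentile. The Sox17 first start had 14 reads against 6, a ratio of 2.53 (0.914 to 8.04). Afp was the start counted as lower, with 2 reads against 11 (ratio 0.197, interval 0.0212 to 0.904, adjusted p = 0.316 by the exact test). By the exact test adjusted p was below 0.05 at 0 of 11 starts, where 1.34% of all rows passed as higher and 0.117% as lower, and unadjusted p at 2 (11.5% of all rows).

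The Sox7 ratio depended on the window. Between 250 bp before and after the TSS the untagged library held 0 reads and Tip60 GFP KD 6. From 1000 bp before to 1000 bp after it, Tip60 GFP KD held 22 and untagged 20.

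Tagged Hdac6 gave more reads than background at about as many of these promoters as elsewhere. In Hdac6 GFP KD, 5 of 11 starts were higher than in untagged (Gata4 second, Sox17 second, Sox7, Foxa2 second and Dab2), against 47.2% of all rows, and 0 were lower, against 6.81%. The median log2 fold was 1.11 over the 11 starts and 0.82 over all rows. Matching the 2 libraries by the signal in the flanks (1500 to 2000 bp from the TSS) would lower every fold by 0.23 on the log2 scale, and the same counts of 5 and 0 were found then. Sox7 was the 1 start past an adjusted p of 0.05, where 22.3% of all rows passed it as higher and 0.378% as lower, and unadjusted p was below 0.05 at 3 starts (34.2% of all rows). It had 12 reads against 2, a ratio of 12 (interval 2.67 to 110, adjusted p = 0.0013 by the exact binomial test). Its fold ranked at the 99.31 percentile of all rows. With 16 reads against 20 in the wider window, its adjusted p was 0.321 by the same exact test. Within 250 bp of the TSS, with 5 reads against 0, adjusted p was 0.0338 by that test. The Sox17 second start came next, with 16 reads against 12 (ratio 2.66, interval 1.18 to 6.17, adjusted p = 0.0591 by the exact test). Gata4 second and Dab2 each had 12 reads against 11 (ratio 2.18, interval 0.88 to 5.45).

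The starts not counted as higher included the Foxa2 first start, with 5 reads against 10 and a ratio of 0.999 (interval 0.268 to 3.21). The distal Hnf4a promoter had 9 reads against 16, a ratio of 1.12 (0.438 to 2.7). Both intervals span more than a 2-fold difference in either direction. The 2 tagged comparisons share the untagged library, so its low count at Sox7 entered both.

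**Figure D2:**
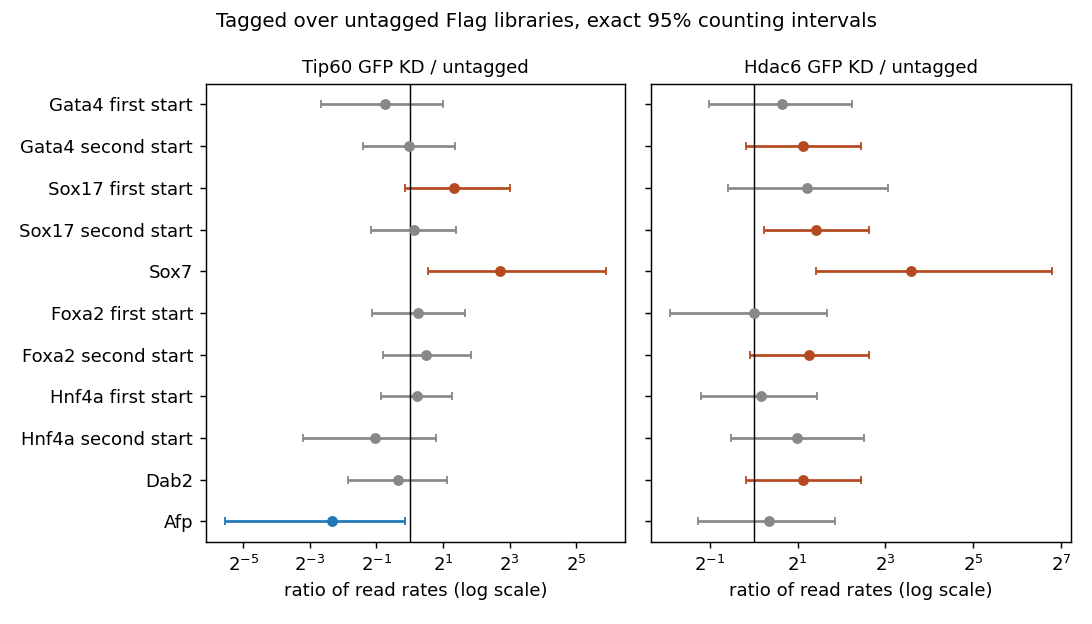
Ratio of read rates in the tagged over the untagged Flag library (x axis, log scale) at each start (y axis), for Tip60 GFP KD on the left and Hdac6 GFP KD on the right. Bars are exact 95% counting intervals, rust and blue mark starts counted as at least 1.5-fold higher or lower, and Sox7 lies farthest to the right in both panels.

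The question for p400 was whether its signal at endoderm promoters differed upon Hdac6 KD. In the Hdac6 KD library, 4 of 11 starts were lower (Gata4 second, Sox17 first, Foxa2 second and Dab2), against 41.9% of all 22704 rows with p400 values, and 2 were higher (Gata4 first and Hnf4a second), against 6.41%. The median log2 fold of the 11 starts was −0.48, beside −0.47 over all rows. The median of the endoderm promoters was thus close to that of the whole table. Adjusted p was below 0.05 at 0 of 11 starts, where 13.1% of all rows passed as lower and 0.3% as higher, and unadjusted p at 3 (27.6% of all rows).

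Those 3 starts were each near 2-fold lower. Gata4 second had 18 reads upon Hdac6 KD against 30 upon GFP KD, a ratio of 0.484 (interval 0.254 to 0.897, adjusted p = 0.0782 by the exact binomial test). Dab2 had 15 against 26, a ratio of 0.465 (0.229 to 0.912, adjusted p = 0.0931, exact test). Foxa2 second had 12 against 22, a ratio of 0.44 (0.199 to 0.929, adjusted p = 0.112, exact test). Their intervals lie below 1, but none passed the adjusted threshold in this window. In the wider window Dab2 (23 reads against 43, adjusted p = 0.0112) and Foxa2 second (27 against 44, adjusted p = 0.0265) did pass it by the exact test. The share of all rows that passed in the wider window is not given here, so this is not read as particular to these starts. Gata4 second did not, with 48 reads against 51. The wider window of Foxa2 second takes in part of the promoter window of the first Foxa2 start, 1064 bp upstream.

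The profiles show where those reads lay. The highest coverage was sought within 1000 bp of the TSS, as a running mean over 100 bp. At the Gata4 second start, p400 coverage upon GFP KD was highest 80 bp before the TSS (0.474 ppm). Upon Hdac6 KD it was highest 800 bp before it (0.434 ppm), outside the promoter window, and beyond the stretch searched it reached 0.51 ppm at the single position 1040 bp before the TSS. In the same library the stretch from 100 bp before to 300 bp after the TSS held 5 reads in place of 15. At Dab2 both libraries had their highest coverage 260 bp before the TSS, at 0.545 ppm in the GFP KD library and 0.236 ppm in the other. The Dab2 maximum was therefore lower at the same place, whereas the Gata4 maximum was at another place.

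The 2 starts counted as higher did not pass the test either. Gata4 first had 27 reads upon Hdac6 KD against 13 (ratio 1.67, interval 0.835 to 3.54, adjusted p = 0.362 by the exact test). Hnf4a second had 29 against 13 (ratio 1.8, 0.907 to 3.77, adjusted p = 0.257, exact test), with its maximum within 1000 bp of the TSS 40 bp before it upon Hdac6 KD and 640 bp before it upon GFP KD. These folds ranked at the 94.71 and 95.98 percentile of all rows. Whether the 2 starts of Gata4 differed from each other was not tested. The rows of the p400 files carry no position, and their order could be checked for Sox17 and Foxa2 but not for the 2 starts of Gata4 or of Hnf4a.

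The remaining starts changed less than counting error could show. Sox7 had 20 reads against 23 (ratio 0.701, interval 0.365 to 1.34), Foxa2 first had 18 against 18 (0.807, 0.396 to 1.64), and Afp had 12 against 11 (0.88, 0.356 to 2.2). No control immunoprecipitation for p400 was analysed here, so p400 was set beside its own flanks. Promoter coverage was above that of the flanks at 7 of 11 starts upon GFP KD (77.51% of all rows) and at 7 of 11 upon Hdac6 KD (63.98%).

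**Figure D3:**
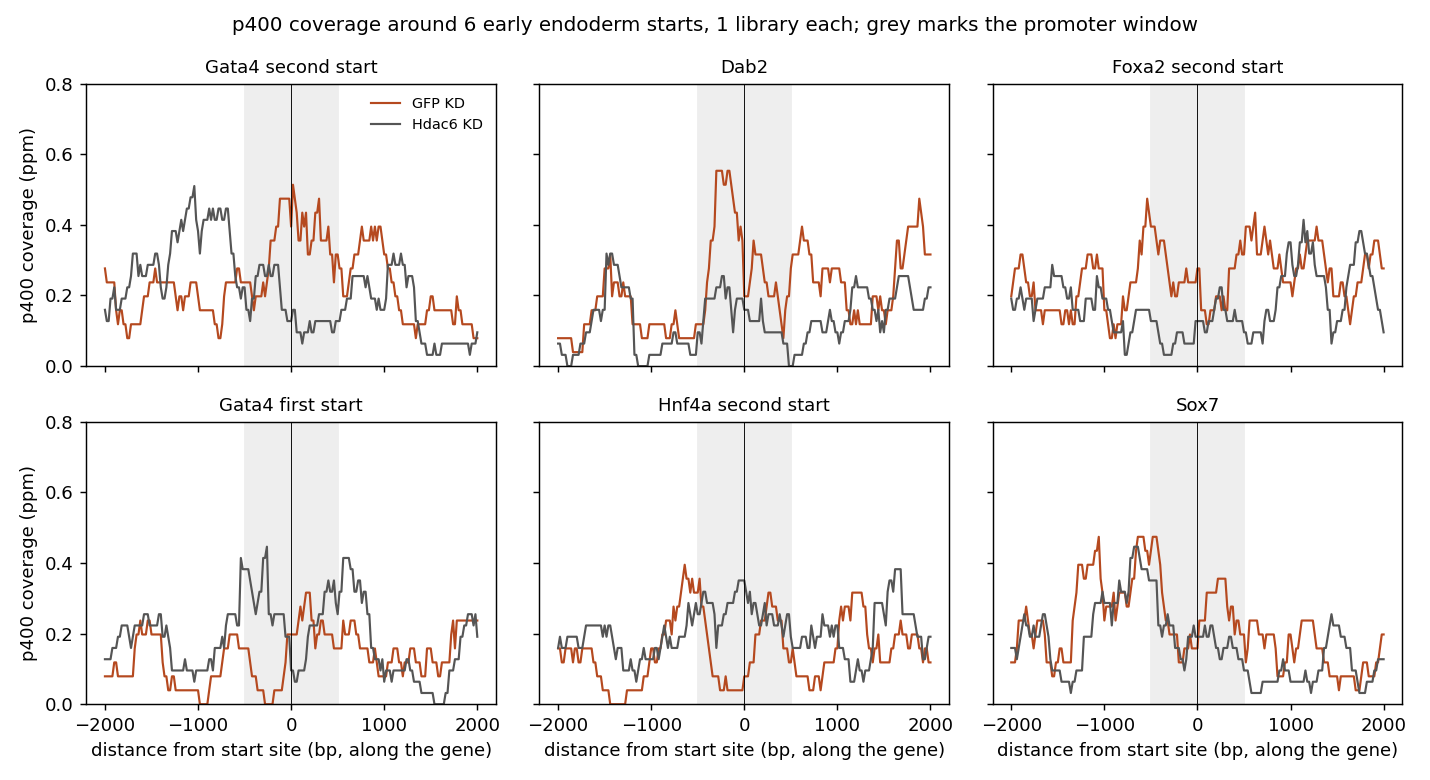
p400 coverage in ppm (y axis) by distance from the TSS along the gene (x axis, bp) at 6 of the starts, upon GFP KD (rust) and Hdac6 KD (dark grey), 1 library each, with the promoter window shaded. At Dab2 the peak just upstream of the TSS is lower upon Hdac6 KD, and at the Gata4 second start the highest coverage lies upstream of the window upon Hdac6 KD.

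For Tip60, 4 of 11 starts were lower upon Hdac6 KD (Sox7, both Foxa2 starts and Hnf4a first), against 25.8% of all rows, and 2 were higher (Hnf4a second and Dab2), against 10.6%. The median log2 fold was −0.09 over the 11 starts and −0.21 over all rows. Tip60 reads at Foxa2 second were 5 upon Hdac6 KD and 13 upon GFP KD (ratio 0.428, interval 0.12 to 1.28, adjusted p = 0.51 by the exact test), and at Sox7 5 and 12 (0.464, 0.128 to 1.42). Hnf4a second was the other way, with 10 against 4 (2.78, 0.803 to 12.2). In the wider window Sox7 held 20 and 22 reads, a log2 fold of 0.024. From -100 to 300 bp Sox7 held 0 and 5 reads and Foxa2 second 1 and 8. Hnf4a second, the other way, held 7 and 1 there. Their adjusted p was 0.714, 0.637 and 0.634, in that order, by the exact test. All 11 intervals of the promoter window include 1. In that window neither adjusted nor unadjusted p was below 0.05 at any of the 11 starts by the exact test. Of all rows 13% had an unadjusted p below it, 0.422% an adjusted one as lower and 0.0517% as higher. This comparison shares its control library with that of tagged Tip60 over background.

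In the Tip60 and p400 comparisons the knockdown over GFP KD ratio of flank windows varied with their GC content. Whether GC content accounts for the folds of single starts was not tested. Tip60 log2 folds upon Hdac6 KD were 0.793 at Dab2 (52.35% GC) and -0.622 at Foxa2 first (53.65% GC). The intervals of both ratios include 1, so nothing about GC content is read from their signs. Flank windows of 37.5 to 40% GC had a Tip60 Hdac6 KD over GFP KD ratio of 1 (1.001), and those of 60 to 62.5% GC had 0.834. Dividing by the ratio of flank windows of like GC left 2 starts counted as lower in place of 4. For p400 the same ratio was 0.867 at the lower and 0.995 at the higher GC range. It was higher between them, at 1.098 for 52.5 to 55% GC and 1.105 for 55 to 57.5% GC. After correction 5 starts were lower in p400 (Sox17 second was added) and 1 higher (Hnf4a second). The shares of all rows after the same correction are not given here, so whether the whole table moved likewise is not shown.

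For Hdac6, the library titled Tip60 KD had 2 of 11 starts higher than GFP KD (Gata4 second and Sox7), against 9.51% of all rows, and 1 lower (Sox17 second), against 8.67%. The median log2 fold was 0.47 over the 11 starts, beside 0.07 over all rows. Sox7 had 17 reads against 12 (ratio 1.78, interval 0.801 to 4.08) and Gata4 second 15 against 12 (1.57, 0.686 to 3.67). The intronic Sox17 start had 6 against 16 (0.471, 0.151 to 1.27). Foxa2 first had the highest ratio, 9 reads against 5 (2.26, 0.68 to 8.59), but under 10 reads in both libraries. Every one of the 11 intervals includes 1, and adjusted and unadjusted p were below 0.05 at 0 starts by the exact test, where 3.58% of all rows had an unadjusted p below it, 0.00272% (1 row) an adjusted one as higher and 0% as lower.

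**Figure D4:**
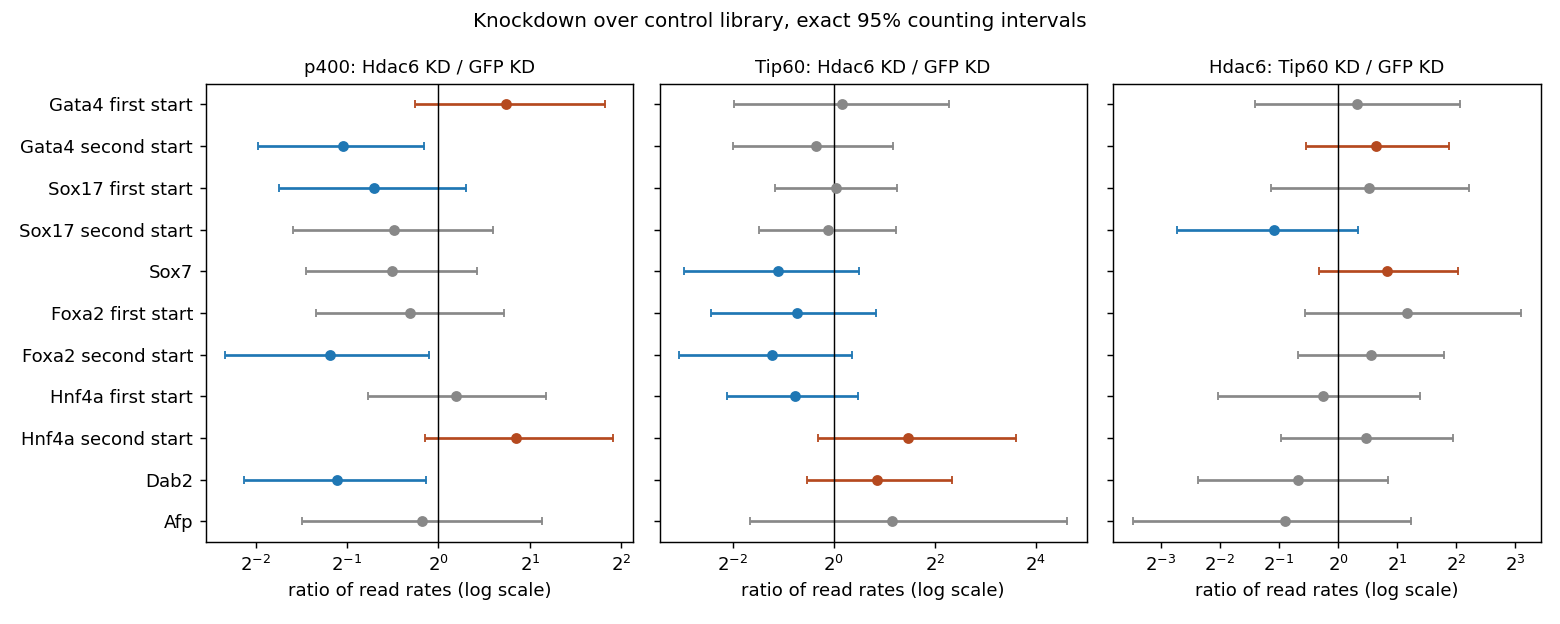
Ratio of read rates in the knockdown over the GFP KD library (x axis, log scale, with its own range in each panel) at each start (y axis) for p400, Tip60 and Hdac6 ChIP. Bars are exact 95% counting intervals, and rust and blue mark starts at least 1.5-fold higher or lower. The p400 intervals of Gata4 second, Foxa2 second and Dab2 lie below 1, and every Tip60 and Hdac6 interval includes 1.

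Other endoderm genes, a list of 41 of which 36 had a row, were set beside the 11 starts (1 start per gene). For p400, 22 of the 36 (61.1%) were at least 1.5-fold lower upon Hdac6 KD, against 41.9% of all rows, and 1 (2.78%) was higher, against 6.41%. The median log2 fold was −0.67, beside −0.47 over all rows. The 5 that fell past the adjusted threshold were Hhex, Prdm1, Eomes, Cxcr4 and Nid2, a share near the 13.1% of all rows that did so. Hhex, a homeobox factor of anterior endoderm, had 18 reads upon Hdac6 KD against 41 upon GFP KD (adjusted p = 0.00468 by the exact test). Eomes, a T-box factor that precedes definitive endoderm, had 15 against 32 (adjusted p = 0.0206, exact test). Both began with more p400 reads upon GFP KD than any of the 11 starts, of which the highest had 30.

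In the Hdac6 GFP KD library 22 of these 36 genes (61.1%) were at least 1.5-fold higher than untagged, against 47.2% of all rows. By that count 3 (8.33%) were lower, against 6.81%. A share above that of all rows was not particular to endoderm genes. Of 29 ectoderm and mesoderm genes 22 (75.9%) were higher and 0 lower, and of 20 pluripotency genes 9 (45%) were higher and 0 lower. By the adjusted threshold 16 of the 36 were higher, where 22.3% of all rows were. Among them were Mixl1, a mesendoderm homeobox factor (20 reads against 7, adjusted p = 0.00043 by the exact test), and Pth1r, a hormone receptor of parietal endoderm (19 against 3, adjusted p = 3.07e-05). The median GC content of the list was 60.54%, beside 53.65% for the 11 starts. For Tip60 against untagged 9 were higher (25%, against 23.8% of all rows) and 2 lower (5.56%, against 11.1%). For Tip60 upon Hdac6 KD 4 were higher (11.1%, against 10.6%) and 9 lower (25%, against 25.8%). For the library titled Tip60 KD 6 were higher and 6 lower (16.7% each, against 9.51% and 8.67%). By the exact test 0 of 36 passed the adjusted threshold in those 3 comparisons, and 5, 3 and 0 had an unadjusted p below 0.05.

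Genes with the most similar reads across all 7 libraries were found for the 3 genes with the most p400 reads upon GFP KD, by Euclidean distance of log2 RPM (1 read added) over 17682 genes. For Gata4 second the nearest were T (distance 0.39), Dusp26 (0.42) and Taf6l (0.43). T, the mesoderm factor Brachyury, held 29 p400 reads with GFP KD and 20 with Hdac6 KD. For Dab2 they were Fmnl2 (0.37), Zbtb37 (0.39) and Ube2d2 (0.41). For Sox7 they were Mtus2 (0.6), Sobp (0.66) and Pcgf5 (0.78), each with 1 or 2 reads in the untagged library. The median distance over all genes was 1.9 for Gata4, 2.04 for Dab2 and 3.03 for Sox7.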

How the data were processed

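The 7 files hold coverage signal as deposited by the authors, in ppm of their normalizing reads, at 201 positions 20 bp apart from -2000 to 2000 bp around each TSS. As the study's methods describe, single-end reads (CASAVA 1.8.2, per the submitters' processing notes) were mapped to mm9 with Bowtie (version not given in the sources used here) with at most 1 mismatch, placed at random where several sites matched, and extended by a stated 150 bp, although isolated reads in 5 files span about 299 bp. The Flag files have 36733 rows and the p400 files the 22704 with a RefSeq identifier, joined by identifier and file order (780 testable pairs were in file order and 0 swapped).

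From these, reads per window were recovered as summed signal over the value of 1 read and the read span, and rounded (Python 3.11.15, numpy 2.4.6, scipy 1.17.1). Folds had 1 read added. Ratios have exact Clopper-Pearson intervals with no read added. Pairs of libraries were compared by an exact two-sided conditional binomial test, adjusted by Benjamini-Hochberg over all rows. The test was tried on simulated reads. All starts of the members were named, and the similar genes by the 3 smallest distances. Members and gene lists were chosen with earlier results of these data known. Other windows, scalings, minimums and a GC correction were tried. No columns of the authors' own comparisons were present.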

Additional observations from a re-analysis of the deposited data

How the results depend on the processing

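No paired analysis was possible because each condition had 1 library, and for the same reason no replicate could be left out. Counts of the 11 starts depended most on the window. Counts here and in the next paragraph are given without the share of all rows under the same setting. They show only how the counts moved, not how the 11 starts stood among all rows. Smaller windows hold fewer reads, so the minimum of 10 was seldom met. In the window of 250 bp on either side, 0 starts were higher or lower for Tip60 against untagged. For Hdac6 against untagged 0 were higher by that count, though Sox7 passed the adjusted p. There were 0 either way for Tip60 upon Hdac6 KD and for the library titled Tip60 KD, and 1 was higher for p400. From -100 to 300 bp the counts were 0 and 0 for Tip60 against untagged, 1 higher for Hdac6 against untagged (0 past the adjusted p), 0 and 0 for Tip60 upon Hdac6 KD, 0 higher for the library titled Tip60 KD and 1 higher for p400. From -600 to -200 bp they were 0 and 0 for Tip60 against untagged, 0 higher for Hdac6 against untagged (0 past the adjusted p), 0 and 0 for Tip60 upon Hdac6 KD, 1 higher and 0 lower for the library titled Tip60 KD, and 1 higher and 2 lower for p400. From -1000 to 1000 bp, 0 were higher for Tip60 against untagged, 0 passed the adjusted p for Hdac6 against untagged, 2 were lower for Tip60 upon Hdac6 KD, 0 were lower for the library titled Tip60 KD, and for p400 1 was higher and 2 passed the adjusted p.

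At 2-fold, 1 start was lower and 1 higher for Tip60 upon Hdac6 KD, 0 and 0 for the library titled Tip60 KD, and 0 higher for p400. With no minimum of reads, 3 were lower for Tip60 against untagged, 8 higher for Hdac6 against untagged and 2 lower for the library titled Tip60 KD. With 0.5 reads added, 2 were lower in that last comparison. GC correction left 2 lower for Tip60 and 1 higher for p400. For these other changes the cause was not tested. Matching the flanks changed no count of the 11 starts by more than 1.5 times.

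The sign of the log2 fold changed in 8 cases, at 7 counted folds. For Hdac6 against untagged they were Gata4 second (-0.59, -100 to 300 bp) and Sox17 second (-1.002, -600 to -200 bp). For Tip60 upon Hdac6 KD they were Sox7 (0.024 in the widest window and 0.64 upstream), Dab2 (-0.26 downstream) and Foxa2 second (0.15 upstream). The others were Sox17 second in the library titled Tip60 KD (0.33 upstream) and p400 at Gata4 first (-0.31 downstream). Reads were equal in both libraries at Foxa2 second (2 and 2), Sox17 second in the library titled Tip60 KD (1 and 1) and Gata4 first (7 and 7). There the sign came from the library totals alone. The number of all rows past the adjusted p was 537 for Tip60 against untagged (41 to 742 under the alternatives), 8343 for Hdac6 against untagged (810 to 9155), 174 for Tip60 upon Hdac6 KD (2 to 644), 1 for the library titled Tip60 KD (0 to 4) and 3049 for p400 (162 to 4515).

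With 2 to 30 reads per start, single starts were imprecise: ratios of 2.78 (Tip60 upon Hdac6 KD at Hnf4a second) and 6.51 (Tip60 against untagged at Sox7) also missed the adjusted threshold. Intervals cover counting error only.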

Other observations

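Pluripotency genes, which these cells use, were set beside the 11 endoderm starts. Of 20 such genes with a row, 15 were above the median p400 row upon GFP KD (median 28 reads), against 5 of the 11 endoderm starts (median 18). In the untagged Flag library 13 of the 20 were above the median row (median percentile 78.83), against 2 of the 11 (39.88), so the background library had a gap of the same direction, and its part in the p400 levels was not tested. Upon Hdac6 KD 14 of the 20 (70%) were at least 1.5-fold lower in p400, against 41.9% of all rows, and 1 (5%) was higher, against 6.41%. By the exact binomial test 4 of the 20 passed the adjusted threshold as lower, where 13.1% of all rows did. Pou5f1, which encodes the pluripotency factor Oct4, had 17 reads upon Hdac6 KD against 35 upon GFP KD (adjusted p = 0.0155, exact test), and Sox2, its partner, 17 against 32 (adjusted p = 0.0345, exact test). Of 29 ectoderm and mesoderm genes, 14 (48.3%) were lower and 2 (6.9%) higher, shares near those of all rows, and 1, the homeobox factor Msx2, passed the threshold with 17 against 36 (adjusted p = 0.012, exact test). The difference between these lists was not tested.

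A row without a symbol lies at a second annotated start of Dab2, at chr15:6249789 on the plus strand. It held 10 reads in Tip60 GFP KD, 7 in Tip60 Hdac6 KD, 7 in Hdac6 GFP KD, 3 in the library titled Tip60 KD and 18 in untagged. The untagged library was the highest of the 5 in reads there, at the 84.84 percentile of its rows.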
